A study of Mus musculus with 6 samples.

Results

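The immediate early transcription factors examined here are 10 genes whose products are made soon after a cell is stimulated: Fos, Fosb, Jun and Junb of the AP-1 family, Atf3, the zinc finger factors Egr1, Egr2 and Egr3, the nuclear receptor Nr4a1 and the regulator Ier2. All probe sets whose platform annotation names only 1 of these genes were taken, which gave 13 of the 45037 probe sets tested and covered all 10 genes of 18193. Jun, Egr2 and Egr3 each had 2 probe sets and the other genes 1. The study measured whole oviducts of MF1 female mice on 6 arrays, 1 per sample. The 3 wild-type samples carried Wt1 +/+ and the 3 heterozygous samples Wt1 ko/+, where Wt1 is the gene of a zinc finger transcription factor and the labels describe the altered allele only as ko. All females of both genotypes had been mated with wild-type males, and the tissue was taken at embryonic day 2.5. Neither the age of the females nor whether a sample held 1 animal or a pool is given in the sources used here, so every p-value below reflects only how far these samples spread, and that spread may be technical. In whole tissue, more cells of a type and more RNA per cell cannot be told apart in any level below.

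Immediate early genes are transcribed without new protein synthesis when growth factors, hormones, depolarization, stretch or stress act on a cell, and their messenger RNAs decay quickly. The signals reach them through the serum response factor, which binds the CArG box together with ETS partners or myocardin-related cofactors, and through CREB, which binds the cAMP response element. FOS proteins pair with JUN proteins to form AP-1, EGR proteins bind GC-rich sites, and NR4A1 acts as a nuclear receptor without a known hormone. Dual specificity phosphatases such as Dusp1, the mRNA decay factor Zfp36 and the EGR corepressors Nab1 and Nab2 limit the response.

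Promoter sequence from RefSeq (GRCm38.p6, 250 bases before to 50 after a start site) was matched for 7 of the 10 genes, with 11 start sites. None was matched for Egr1, Egr3 and Ier2. The promoters of Fos, Fosb, Junb and Nr4a1 are shown because these 4 genes stood at least 1 above the median of the arrays, on the log2 scale, in heterozygous replicate 1, and that of Jun because its levels varied least over the arrays. Each is written 5′ to 3′ along the gene, and capitals mark TGACG, the core of the cAMP response element, on either strand.
Fos, chr12:85473640-85473939, plus strand: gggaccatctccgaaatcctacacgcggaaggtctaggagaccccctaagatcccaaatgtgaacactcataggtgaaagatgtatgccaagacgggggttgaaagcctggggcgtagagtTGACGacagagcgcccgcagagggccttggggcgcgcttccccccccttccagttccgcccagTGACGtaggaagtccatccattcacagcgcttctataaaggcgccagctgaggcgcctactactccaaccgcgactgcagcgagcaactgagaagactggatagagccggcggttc
Fosb, chr7:19309996-19310295, minus strand: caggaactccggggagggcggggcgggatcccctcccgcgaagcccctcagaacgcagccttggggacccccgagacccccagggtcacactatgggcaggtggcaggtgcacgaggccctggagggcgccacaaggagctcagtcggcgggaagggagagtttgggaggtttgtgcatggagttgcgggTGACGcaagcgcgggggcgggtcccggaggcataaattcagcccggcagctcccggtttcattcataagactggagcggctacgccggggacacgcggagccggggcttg
Junb, chr8:84978699-84978998, minus strand: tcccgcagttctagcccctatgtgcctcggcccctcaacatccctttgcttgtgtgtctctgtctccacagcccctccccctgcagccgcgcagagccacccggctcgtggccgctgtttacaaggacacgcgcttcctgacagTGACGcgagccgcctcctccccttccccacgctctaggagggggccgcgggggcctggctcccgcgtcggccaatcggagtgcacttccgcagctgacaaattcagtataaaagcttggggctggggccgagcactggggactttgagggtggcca
Nr4a1, chr15:101266596-101266895, plus strand: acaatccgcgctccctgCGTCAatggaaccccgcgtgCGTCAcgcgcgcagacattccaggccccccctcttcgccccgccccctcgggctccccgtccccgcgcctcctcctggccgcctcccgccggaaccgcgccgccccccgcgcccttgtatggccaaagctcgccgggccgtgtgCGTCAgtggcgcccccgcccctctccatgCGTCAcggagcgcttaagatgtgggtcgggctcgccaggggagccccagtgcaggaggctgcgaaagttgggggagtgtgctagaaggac
Jun, chr4:95052173-95052472, minus strand: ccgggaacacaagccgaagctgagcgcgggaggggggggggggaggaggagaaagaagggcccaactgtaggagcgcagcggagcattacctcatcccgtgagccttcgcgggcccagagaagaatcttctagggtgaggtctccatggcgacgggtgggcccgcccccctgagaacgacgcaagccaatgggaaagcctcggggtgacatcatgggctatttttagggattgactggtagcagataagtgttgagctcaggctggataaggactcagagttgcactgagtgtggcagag
The core TGACG was found, on either strand, in 8 of the 11 member promoters, at 6 of the 7 genes, and in 20.8% of 32851 mouse promoters of the same length. The Egr2 windows among the 8 overlap and repeat the same sites, and the 20.8% counts promoters rather than genes. Of the genes shown, Nr4a1 held the core 4 times, Fos at positions -129 and -66 from the start site, Fosb at -60, Junb at -106 and Jun not in this window. Of the genes not shown, Atf3 held it at -7 and Egr2 in several windows. Neither of them lay at least 1 above the median in heterozygous replicate 1. The genes shown were picked by their levels, and a link of the core to the levels was not tested. The full palindrome TGACGTCA, which holds TGACG on both strands, was in 0 of the 11 and in 1.79% of all promoters. A CArG box was found at 1 of the 7 genes, Egr2, in 4 of its 5 start-site windows, most of which overlap, against 1.63% of all promoters. The EGR sites GCGGGGGCG or GCGTGGGCG were found at Fosb and Nr4a1, 2 of the 11, against 3.47%, and the AP-1 sites TGACTCA or TGAGTCA in 0 of the 11, against 5.2%. These matches describe letters only, and a motif outside these windows was not searched for.

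The median intensity was 151.6 to 167.8 over the arrays. Ovgp1, the oviduct-specific glycoprotein, had intensities of 17928 to 22924 and Foxj1, the master regulator of motile cilia, of 3270 to 4616, so defining markers of oviduct epithelium were bright in all 6 arrays. The intensity ratio of the 3' to the 5' probe set of the Actb control, a measure of RNA integrity, was 5.90 in wild-type replicate 3, 2.49 in heterozygous replicate 1, 2.40 in wild-type replicate 2 and 1.67 to 1.74 in the other arrays. Wt1 itself had a log2 change, heterozygous minus wild type, of -0.57 (limma standard error 0.24, adjusted p = 0.933) with overlap between the genotypes. Intensities below are the deposited linear values. The log2 levels and changes were taken after quantile normalization.

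Heterozygous replicate 1 stood apart in most of these genes. It held the highest level of the 6 arrays in 9 of the 13 probe sets, whereas it was the highest array in 15.6% of all probe sets. In 4 probe sets, those of Fos, Fosb, Junb and Nr4a1, it lay at least 1 above the median of the 6 arrays on the log2 scale, as it did in 3.07% of all probe sets. No other array lay that far above the median in any of the 13. The median deviation of heterozygous replicate 1 over the 13 probe sets was 0.61 on the log2 scale. It lay above the median of the arrays in 12 of the 13, where it did in 50.5% of all probe sets. At 0 of the 13 did it lead every other array by at least 1, as it did at 292 of all 45037. Heterozygous replicate 2 lay on the opposite side: its median deviation was -0.32, it was above the median of the arrays in 1 of the 13, where it was in 47.1% of all probe sets, and it was the lowest array in 4 of the 13, where it was in 16.4% of all. Its Fos level was the only value at least 1 below the median. Thus the most distant arrays on both sides carried the same genotype.

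**Figure D1:**
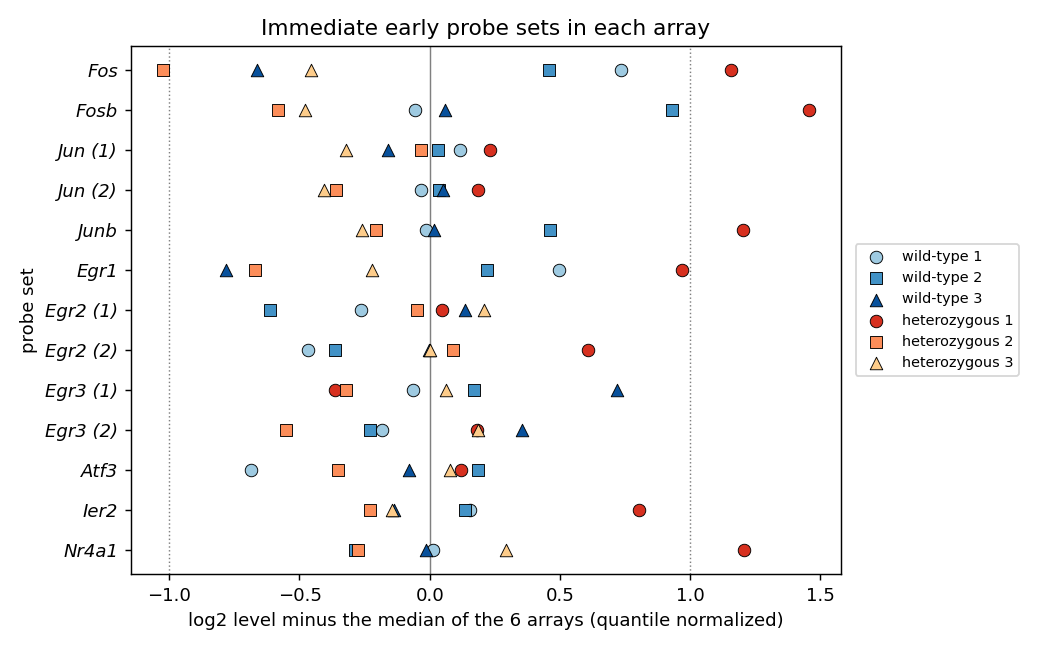
Log2 level of each of the 13 probe sets in each array, minus the median of the 6 arrays (x axis, quantile-normalized log2 units; blue, wild type; red to yellow, heterozygous; dotted lines at 1 and -1). The red circles, heterozygous replicate 1, lie farthest right in 9 of the 13 probe sets. Jun (1) and (2) are probe sets 1417409_at and 1448694_at, Egr2 (1) and (2) 1427682_a_at and 1427683_at, and Egr3 (1) and (2) 1421486_at and 1436329_at.

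Fos, the inducible partner in AP-1, had an intensity of 5607 in wild-type replicate 1, 4750 in replicate 2 and 2209 in replicate 3, against 7903, 1696 and 2507 in the heterozygous arrays, listed by replicate number here and below. Heterozygous replicate 1 and wild-type replicates 1 and 2 were high and the other 3 arrays low, so each genotype held both kinds of array. The highest normalized level was 4.53-fold above the lowest, and both came from heterozygous oviducts. Fosb, another FOS family member, was at 106.5, 215.9 and 118.5 in the wild-type and 305.5, 77.1 and 88.1 in the heterozygous arrays. In both genotypes its mean was dimmer than the typical probe set. Heterozygous replicate 1 and wild-type replicate 2 were high, and heterozygous replicates 2 and 3 were the lowest, so the wild-type values lay within the heterozygous range.

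Junb, a JUN family member that restrains Jun, showed 452.5, 626.3 and 444.9 in wild-type and 1055, 403.5 and 388.0 in heterozygous arrays. Only heterozygous replicate 1 lay above wild-type replicate 2, by 0.74 on the log2 scale, and heterozygous replicates 2 and 3 lay below every wild-type array. Jun, the main DNA-binding partner of FOS, varied far less. At probe set 1417409_at it was at 3963, 3792 and 3391 in wild-type and 4367, 3606 and 2901 in heterozygous arrays, a range of 1.47-fold after normalization. At 1448694_at it was at 2747, 2868 and 2962 in wild-type and 3256, 2162 and 2106 in heterozygous arrays. At this probe set, as for Junb, heterozygous replicate 1 above and heterozygous replicates 2 and 3 below every wild-type array. Atf3, a stress-induced factor of the ATF/CREB family, had 319.5, 579.6 and 467.0 in wild-type and 543.9, 407.8 and 542.5 in heterozygous arrays. Here wild-type replicate 2 was the highest and wild-type replicate 1 the lowest, and heterozygous replicate 1 did not stand out.

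Egr1, an EGR factor widely used as a marker of this response, was at 4409, 3699 and 1844 in wild-type and 6356, 1972 and 2691 in heterozygous arrays. The 3 highest arrays were the same as for Fos and came in the same order, and heterozygous replicate 1 lay 0.97 above the median of the arrays on the log2 scale. Wild-type replicate 3, the array with the highest Actb ratio, was the lowest for Egr1, at 0.78 below that median. Egr2, a factor best known from hindbrain and Schwann cells, was dim at both probe sets, each of them under the typical level of the array. At 1427683_at it was at 54.0, 61.6 and 79.3 in wild-type and 115.1, 84.7 and 84.9 in heterozygous arrays, with no overlap between the genotypes. After normalization the closest arrays of the 2 genotypes, wild-type replicate 3 and heterozygous replicate 3, were nearly level. At 1427682_a_at the values were 24.4, 20.4 and 34.7 against 30.3, 30.5 and 38.5, and the genotypes overlapped. Egr3, a close relative of Egr1, differed from the rest. At 1421486_at it was at 152.8, 181.6 and 257.2 in wild-type and 120.3, 131.4 and 178.0 in heterozygous arrays, and heterozygous replicate 1 was the lowest of all. At 1436329_at it was at 103.3, 103.1 and 151.8 against 131.0, 83.0 and 145.7. Wild-type replicate 3 was the highest array at both Egr3 probe sets.

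Ier2, a small nuclear regulator of the response, was at 1403, 1380 and 1117 in wild-type and 2198, 1063 and 1117 in heterozygous arrays. Heterozygous replicate 1 lay 0.65 above the next array on the log2 scale, and the other 5 arrays lay between 1063 and 1403. Nr4a1 was at 654.0, 525.2 and 619.8 in wild-type and 1495, 538.5 and 787.3 in heterozygous arrays. Heterozygous replicate 1 led the next array by 0.92 on the log2 scale, the widest gap of the 13 probe sets, and that next array was heterozygous replicate 3. Wild-type replicate 2, whose Actb ratio of 2.40 was close to the 2.49 of heterozygous replicate 1, had the lowest Nr4a1 level of all. For Fosb, at 215.9, and Junb, at 626.3, it was instead the next array after heterozygous replicate 1.

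**Figure D2:**
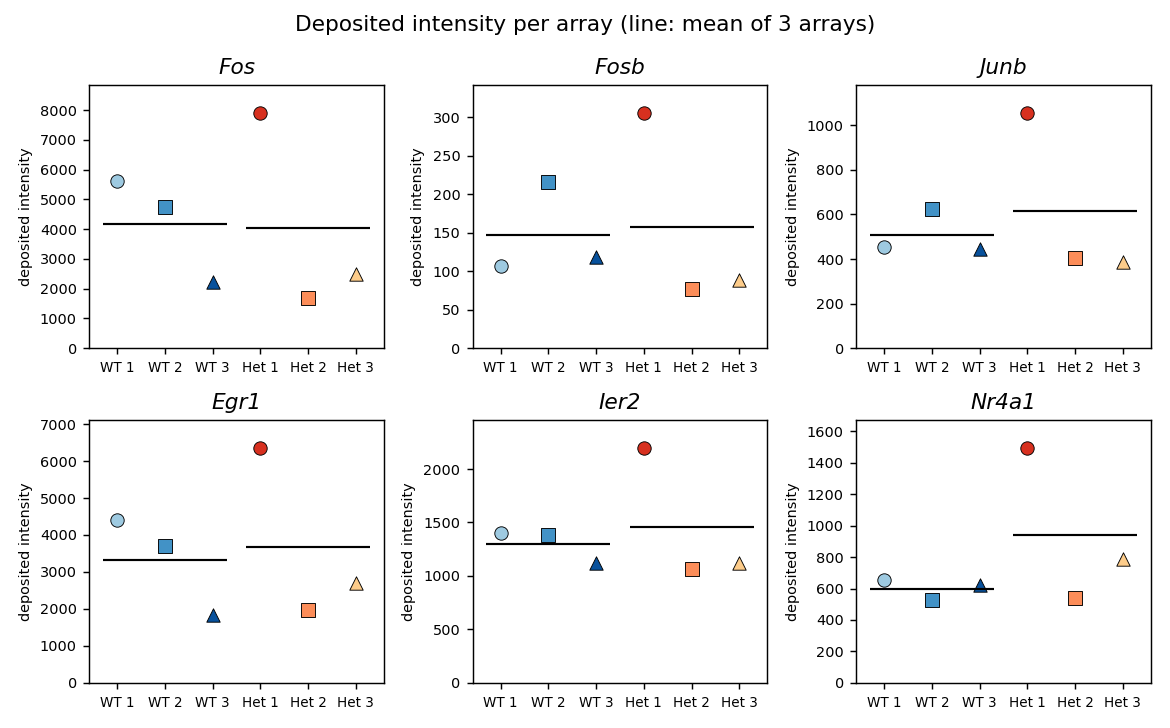
Deposited linear intensity (y axis, from 0) of 6 of the 10 genes in each array (x axis; WT, wild type; Het, heterozygous; the horizontal line is the mean of the 3 arrays of a genotype). Heterozygous replicate 1 is the highest array in all 6 panels, and heterozygous replicates 2 and 3 lie below the mean of their own group.

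None of the 13 probe sets passed the test for a difference between genotypes (limma, adjusted p of 0.933 to 0.993), where 0.00666% of all probe sets passed. At an unadjusted p under 0.05 the count was also 0 of 13, beside 5.19% of all probe sets. The log2 change, heterozygous minus wild type, was above 0 in 7 and below 0 in 6 of the probe sets, with a median of 0.05. The genotypes did not overlap at 1 of the 13, the Egr2 probe set 1427683_at, where 10.5% of all probe sets showed no overlap. The mean log2 level there was 6.02 ± 0.24 in wild type against 6.54 ± 0.33 in heterozygotes (SD, n = 3 each), which gave a change of 0.51 ± 0.23 (standard error, 95% interval -0.06 to 1.08, exact permutation p = 0.1, the smallest that 3 arrays against 3 allow). The other Egr2 probe set gave 0.32.

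The intervals of the genes that varied most were wide. For Fos the mean log2 levels were 11.94 ± 0.74 and 11.66 ± 1.13 (wild type first, SD, n = 3 each), and the change was -0.29 with a 95% interval of -1.92 to 1.35. The Egr1 means were 11.61 ± 0.67 and 11.66 ± 0.85 (SD, n = 3 each), and the change was 0.05 with an interval of -1.27 to 1.36. Fosb stood at -0.18 (-1.71 to 1.36) and Junb at 0.09 (-0.99 to 1.17). Changes of more than 2-fold in either direction thus lie within the intervals of Fos, Egr1 and Fosb, and these data do not show that the genotypes are alike in them. Nr4a1 stood at 0.51 (-0.45 to 1.46), Ier2 at 0.09 (-0.68 to 0.86) and Atf3 at 0.14 (-0.54 to 0.83). Jun was measured more tightly, at -0.04 (-0.52 to 0.44) and -0.21 (-0.71 to 0.29). The Egr3 probe sets gave -0.48 (-1.11 to 0.15) and -0.04 (-0.74 to 0.66).

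The sign of the change turned in 8 of the 13 probe sets when 1 of the 6 arrays was left out. Without heterozygous replicate 1 the log2 change was -0.92 for Fos, -0.84 for Fosb, -0.43 for Egr1, -0.39 for Junb and -0.24 for Ier2, and 9 of the 13 probe sets were lower in heterozygous oviducts, with a median of -0.24. The 2 Jun probe sets stood at -0.17 and -0.40, and Nr4a1 stood at 0.11. Without heterozygous replicate 2 the same comparison gave 0.17 for Fos, 0.18 for Fosb, 0.39 for Egr1, 0.32 for Junb, 0.28 for Ier2 and 0.85 for Nr4a1, and 10 of the 13 were higher, with a median of 0.28. Wild-type replicate 3 mattered for the genes in which it was low: without it Fos stood at -0.71 and Egr1 at -0.34. Leaving out wild-type replicate 3 and heterozygous replicate 1 together, an alternative chosen after seeing the data, gave -1.34 for Fos and -0.81 for Egr1. Fosb stood at 0.13 without wild-type replicate 2 and at 0.13 without heterozygous replicate 3, and Atf3 at -0.10 without wild-type replicate 1. In all of these fits 0 of the 13 probe sets passed. Both Egr2 probe sets, the Jun probe set 1448694_at, the Egr3 probe set 1421486_at and Nr4a1 kept the sign of their change when any 1 array was left out.

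**Figure D3:**
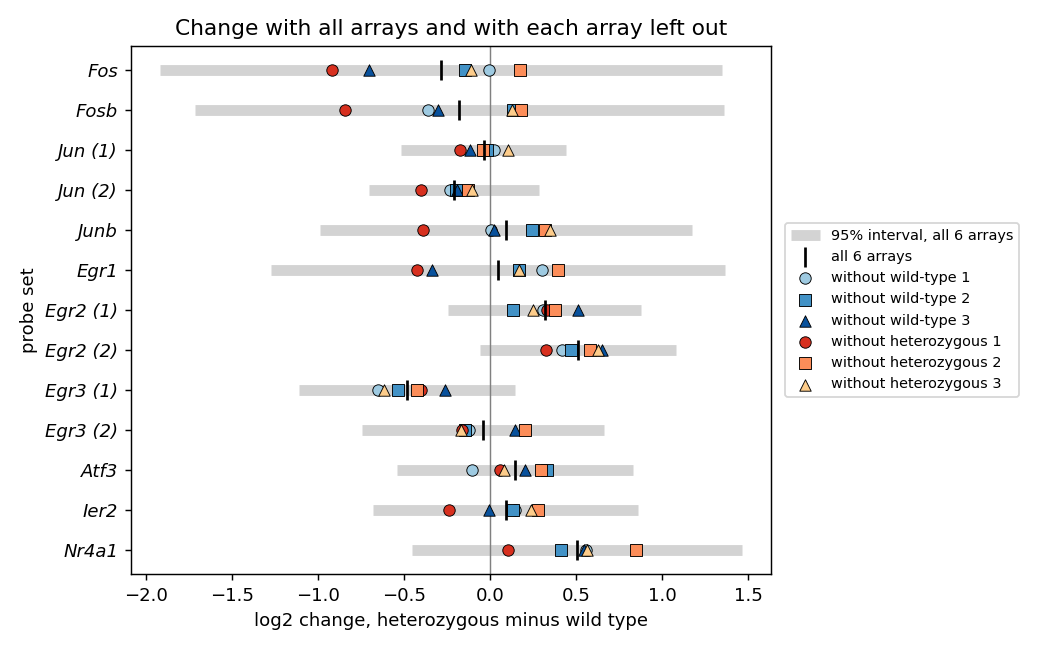
Log2 change, heterozygous minus wild type (x axis), of each of the 13 probe sets with all 6 arrays (black tick, with the 95% interval as a grey bar) and with each array left out (points; 2 arrays in one genotype and 3 in the other). The red circles, without heterozygous replicate 1, lie at -0.92 for Fos and -0.84 for Fosb, and the orange squares, without heterozygous replicate 2, at 0.17 and 0.18. Numbers in brackets name the probe sets as in the plot of levels per array.

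The arrays were also compared within classes of the Actb ratio, a technical measure. Among the 3 arrays of lower ratio, wild-type replicate 1 against heterozygous replicates 2 and 3, the difference was -1.48 for Fos, -0.94 for Egr1, -0.34 for Ier2 and -0.0041 for Nr4a1 on the log2 scale. Among the 3 arrays of higher ratio, heterozygous replicate 1 against wild-type replicates 2 and 3, it was 1.26 for Fos, 1.25 for Egr1, 0.80 for Ier2 and 1.36 for Nr4a1. The sign of the difference was opposite in the classes at 9 of the 13 probe sets, those of Fos, Fosb, Junb, Egr1, Ier2 and Nr4a1, both of Jun and the Egr3 probe set 1436329_at. It was the same in both classes at 4, both Egr2 probe sets, the Egr3 probe set 1421486_at and Atf3. Each class held 1 array of one genotype, so no test was made within them. In the higher class that array was heterozygous replicate 1, which was highest at most of the 13 probe sets. These differences thus restate the levels above and say nothing of the ratio itself. The share of opposite signs over all probe sets was not counted. With the log2 ratio as a covariate in the limma fit the change was -0.49 for Fos, -0.18 for Egr1 and 0.67 for Nr4a1, and 0 of the 13 probe sets passed (adjusted p of at least 0.830).

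Other genes of the response were read from lists, which were chosen with earlier results of these data known and so give no independent support. Of 45 other immediate early genes 16 had their highest level in heterozygous replicate 1, a share of 35.6%, where 15.3% of all genes did. Of the 10 factors themselves, at their brightest probe sets, 8 did. Heterozygous replicate 1 lay at least 1 above the median of the arrays, on the log2 scale, in 3 of the 45 genes. It did so in 3.07% of all probe sets and in 0.133% of those brighter than the median. The genes were Arc, Ccn1 and Dusp1, of which Arc was dim and was higher still in wild-type replicate 3. The matricellular gene Ccn1 was at 826.0, 694.0 and 707.7 in wild-type and 1985, 572.7 and 664.0 in heterozygous arrays, a pattern like that of Ier2. Dusp1, which inactivates MAP kinases, was at 2328, 1363 and 1102 in wild-type and 3386, 1140 and 974.8 in heterozygous arrays. Zfp36, which triggers decay of unstable messenger RNAs, was at 1615, 1722 and 1547 against 2910, 1592 and 1255. In all 3 of these genes heterozygous replicate 1 was the highest array and heterozygous replicate 2 or 3 the lowest. These 3 genes are named because their levels were among those most like the 10 factors, so this order follows largely from that choice. Btg2, an antiproliferative gene named after its values were seen, was at 3103 in heterozygous replicate 1 and at 1161 to 1867 in the other arrays.

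Between genotypes, 27 of these 45 genes were higher and 18 lower in heterozygous oviducts, where 45% of all genes were higher. The median log2 change was 0.03, beside -0.03 over all 18193 genes. None passed (limma over genes), where 0.0165% of all genes did, and 5 of the 45 had an unadjusted p under 0.05, beside 6.44% of all genes. The bright genes with the highest log2 changes had another order of arrays than Fos. Ccn2, another matricellular gene, was at 1142, 1087 and 1162 in wild-type and 2651, 1719 and 2098 in heterozygous arrays, a log2 change of 0.91 (standard error 0.18, adjusted p = 0.485). Sgk1, a kinase induced by glucocorticoids, was at 1578, 1129 and 949.7 against 1866, 1856 and 2002, a log2 change of 0.68 (standard error 0.20, adjusted p = 0.625). In both genes all 3 heterozygous arrays lay above all wild-type arrays, including heterozygous replicates 2 and 3, which were low in Fos. The genotypes did not overlap at 8 of the 45 genes, beside 2140 of all 18193. The same arrays were also apart in cell markers: 8 of 8 smooth muscle, 8 of 8 endothelial and 8 of 8 stromal markers had a log2 change above 0, with 0 called by limma and, in the same order, 4, 2 and 1 at an unadjusted p under 0.05, where 45% of all genes were higher and 6.44% had such a p. The adipocyte list had the largest median change of the 9 cell marker lists, 1.37, with 3 of its 4 measured genes higher, 0 called and 2 at an unadjusted p under 0.05. Its genes were dim, 1 of the 4 being brighter than the median of all probe sets, and summed to 145.8 to 178.7 in wild-type and 345.4 to 625.2 in heterozygous arrays. Endothelial markers summed to 2920 to 3419 in wild-type and 3774 to 4366 in heterozygous arrays, and stromal markers to 39965 to 42660 and 42951 to 50622. The part of these markers in the values of Ccn2 and Sgk1 was not tested. Among the genes brighter than the median of all probe sets, the lowest changes were those of Klf10 and of the clock gene Per1, both at -0.49 with overlap between the genotypes.

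The feedback inhibitors had 16 of 20 genes higher, with a median log2 change of 0.26, 0 called and 2 at an unadjusted p under 0.05. Over all genes 45% were higher and 6.44% had such a p. In heterozygous replicate 1, 8 of the 20 had their highest level, a share of 40%, where 15.3% of all genes did. Errfi1, Dusp1, Zfp36, Zfp36l1 and Sik1 were also among the 45 genes above, so the lists are not separate. Errfi1, which inhibits the EGF receptor, stood at 0.57 and Dusp6, a phosphatase for ERK, at 0.40, both without overlap. Of the 20 genes 5 showed no overlap, beside 2140 of all 18193. Smooth muscle, endothelial, stromal and adipocyte markers also had median changes above 0, and the part of cell composition in the feedback inhibitors was not tested. The EGR corepressors were on the other side, with Nab2 at -0.58 and Nab1 at -0.11. Among 12 AP-1 partners 7 were higher and 5 lower, with a median of 0.05, and 0 passed, also at an unadjusted p under 0.05. There the small MAF proteins Mafk and Maff stood at 0.24 and 0.23, Atf4 at -0.48 and Jund at -0.17. The Atf4 value came from a probe set marked as cross-hybridizing, and the mean of its probe sets gave -0.22. Of the 22 measured genes of the induction pathway, from MAP kinases to serum response factor and CREB, 12 were higher and 10 lower, 0 were called, also at an unadjusted p under 0.05, and 1 was highest in heterozygous replicate 1. In this list the log2 change was 0.37 for Crem, 0.29 for the ETS factor Elk3, -0.43 for the kinase Map2k2 and -0.29 for Mapkapk2. Changes of all named genes of these lists had adjusted p-values of 0.485 or more.

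A score, the mean over genes of the log2 level minus each gene's mean over the 6 arrays, summarised each list. For the 10 factors the wild-type arrays scored -0.04, 0.14 and -0.16 and the heterozygous arrays 0.68, -0.42 and -0.20. The heterozygous SD, 0.58, was larger than the wild-type SD of 0.15, and the means differed by 0.04. The score of the other immediate early genes was 0.21 in heterozygous replicate 1 and -0.08 to 0.01 in the other arrays. That of the feedback inhibitors was 0.19 in heterozygous replicate 1, 0.10 in heterozygous replicate 2 and -0.16 to -0.0071 in the other arrays. The heat shock list, another stress response, scored -0.22 in heterozygous replicate 1, the lowest of the 6. It scored -0.13 in heterozygous replicate 2, 0.03 in replicate 3 and 0.02 to 0.21 in wild-type arrays. Of its 16 genes 14 were lower in heterozygous oviducts, with a median log2 change of -0.16, where 45% of all genes were higher. None was called, and 2 had an unadjusted p under 0.05 (limma), beside 6.44% of all genes. In none of the 9 cell marker lists, 56 measured genes in all, was heterozygous replicate 1 the highest array by score or by summed level. Smooth muscle markers summed to 31621 to 34188 in wild-type and 36247 to 48661 in heterozygous arrays. The sum was 42568 in heterozygous replicate 1 and highest in heterozygous replicate 2. The part of cell composition in the levels of the 10 factors was not tested. No marker was at the floor in all arrays.

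**Figure D4:**
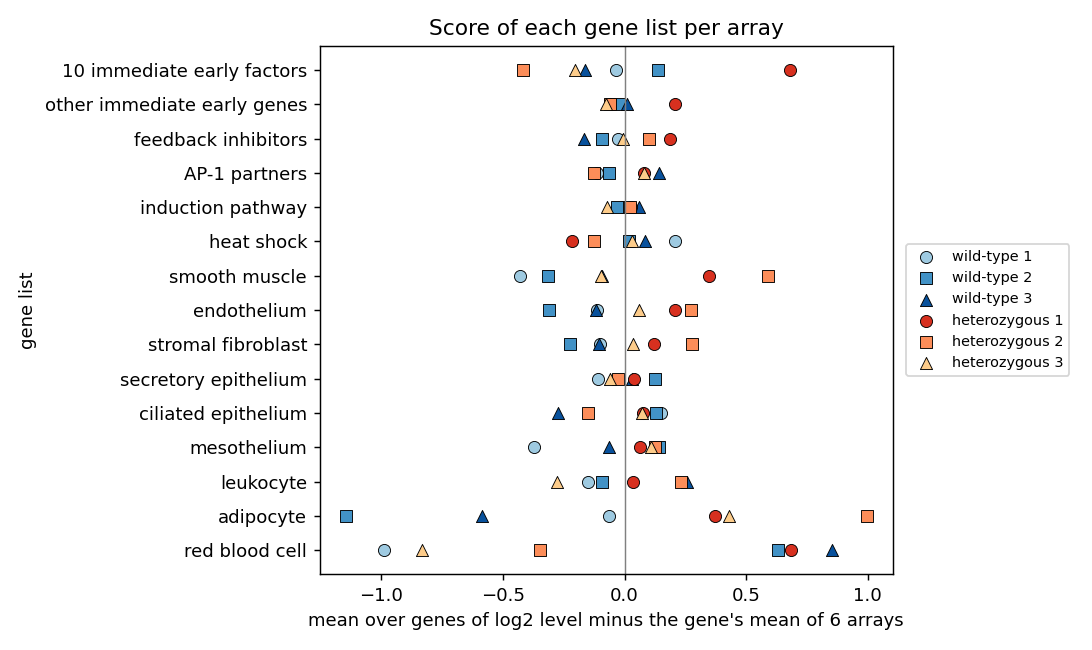
Score of each gene list in each array (x axis, mean over genes of the log2 level minus the gene's mean over the 6 arrays; colours and shapes mark the arrays). The red circle, heterozygous replicate 1, lies at 0.68 for the 10 factors and at 0.21 for the other immediate early genes, and is not the rightmost point in any of the 9 cell marker lists.

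Within the group, each gene's level was set against the mean score of the other 9 over the 6 arrays. Pearson's r was 0.97 for Ier2, 0.95 for Junb, 0.91 for Fosb, 0.80 for Fos, 0.80 for Egr1, 0.72 for Nr4a1 and 0.67 for Jun. Egr2 and Atf3 had r of 0.39 and 0.35, and Egr3 had -0.38. These values describe 6 arrays of which 1 lies far from the rest. Among 1086 other genes that were brighter than the median of all probe sets and varied by at least 1 on the log2 scale, those most like the score of the 10 factors were Chst2, a sulfotransferase (r = 0.96), Ccn1 (0.93), Tnfrsf12a, the receptor for TWEAK (0.92), Pitpnm3 (0.91), Mbd6 (0.90), Zfp36 (0.88), Hephl1 (0.85) and Dusp1 (0.83). Of these 8 genes 3 were in the lists above. The 8 are the highest of 1086 correlations over 6 arrays, and the lists were chosen with earlier results known. The count of 3 is thus no independent support. Without heterozygous replicate 1 the r was 0.67 for Ccn1, 0.60 for Tnfrsf12a, 0.47 for Dusp1 and 0.36 for Zfp36, whereas it was 0.92 for Chst2, 0.97 for Pitpnm3, 0.88 for Mbd6 and 0.79 for Hephl1.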

How the data were processed

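The labels describe biotin-labelled cRNA prepared from total RNA of each oviduct sample and hybridised to 1-colour arrays, and the titles gave each sample's group and number. Values are linear intensities as deposited by the authors, 45101 probe sets on each array. The summarising program was not given in the sources used here. The mean after trimming 2% of values at each end was 500.002 on all 6 arrays, which shows a shared scaling before deposit. Detection calls were not used, and the number of arrays limits the precision.

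After 64 control probe sets were removed, the medians of the arrays spanned 0.147 in log2 units, over a limit of 0.1, so log2 intensities were quantile normalized and floored at an intensity of 1. Each gene was represented by its probe set of highest mean. The genotype difference (heterozygous minus wild type, log2) was estimated by limma 3.58.1 (lmFit, eBayes, two-sided) in R 4.3.3 over 45037 probe sets and over 18193 genes, p-values being adjusted by Benjamini-Hochberg and called at 0.05. Exact permutation tests were two-sided. The fit was tested on simulated data. Alternatives were another scaling, a pseudocount of 16, removal of dim probe sets, trended and robust eBayes, weights for arrays, a replicate block, the Actb ratio as a covariate or block, leaving out arrays, no cross-hybridizing probe sets, and averaging the probe sets of a gene. The members and lists were chosen with earlier results of these data known. Named list genes are the 2 highest and 2 lowest changes per list among genes brighter than the median, cell marker and heat shock lists being given by counts and scores, and the 8 genes most like the score of the members. Ovgp1 and Foxj1 are named for their levels.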

Additional observations from a re-analysis of the deposited data

How the results depend on the processing

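No member probe set passed in any of the fits run. At an unadjusted p under 0.05 (limma) the count was 2 of 13 with array weights. It was also 2 without wild-type replicate 3, and without that array and heterozygous replicate 1. The count was 1 under the deposited scaling and with the Actb ratio as a covariate or block, and 0 in the other fits. Over all 45037 probe sets, 5894 had such a p with array weights and 2038 to 2490 in the other 5 fits named. Of the probe sets, 9 of the 13 were highest in heterozygous replicate 1 under the deposited scaling and with log2 of the intensity plus 16, and 7 of the 9 left by the filter on dim probe sets. With all arrays 3 probe sets and 3 genes passed over the whole table. The counts of probe sets and of genes were 14 and 7 with array weights, and 0 and 0 with the Actb ratio as a covariate or as a block of classes. With log2 of the intensity plus 16, 1 probe set passed, while 1 gene passed after dim probe sets were removed and 1 with trend and robust eBayes. Without 1 array, or without wild-type replicate 3 and heterozygous replicate 1, 0 to 1 probe sets and 0 genes passed, and 843 to 1907 genes had an unadjusted p below 0.05 when 1 array was left out.

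With the replicate number as a block 0 probe sets and 0 genes passed. Deviations from the group means of same-numbered arrays correlated at -0.10, -0.03 and -0.08, and the best match of another number at 0.08, 0.03 and 0.07. With 3 arrays per genotype these values cannot decide whether the numbers pair the samples.

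Signs that turned, on the log2 scale, were as follows; the cause was not tested. With array weights Egr1 stood at -0.26, Junb at -0.21, Atf3 at -0.16 and Ier2 at -0.046 over probe sets, and at -0.20, -0.15, -0.15 and -0.012 over genes. With the Actb ratio as a covariate Egr1 stood at -0.18, Fosb at 0.0088, Jund at 0.077 and the Egr3 probe set 1436329_at at 0.18. With the ratio classes as a block Fosb stood at 0.25, the Jun probe set 1417409_at at 0.00038 and this Egr3 probe set at 0.059. Over the fits that left out arrays the range was -1.34 to 0.17 for Fos, -0.97 to 0.18 for Fosb, -0.81 to 0.39 for Egr1, -0.46 to 0.35 for Junb, -0.33 to 0.28 for Ier2, -0.25 to 0.10 for Jun at 1417409_at, -0.17 to 0.20 for Egr3 at 1436329_at, -0.10 to 0.33 for Atf3 and -0.29 to 0.034 for Jund. Both Egr2 probe sets, Jun at 1448694_at, Egr3 at 1421486_at and Nr4a1 kept their sign in every fit that measured them. Brightness above background is unknown without detection calls, so the dim Egr2 and Fosb values are the least certain.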

Other observations

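Wild-type replicate 3, the array with the highest Actb ratio, was the highest of the 6 arrays in 26.3% of all probe sets, and several genes of the lists followed it, named here after their values were seen. Jund, the AP-1 subunit least dependent on stimulation, was at 5709 there and at 2928 to 4338 in the other arrays. Atf4, a factor of the integrated stress response, was at 4295 there and at 2092 to 2902 elsewhere, at its brightest probe set only. The neuronal immediate early gene Arc was dim, at 96.2 in wild-type replicate 3, 72.7 in heterozygous replicate 1, 33.2 in wild-type replicate 2 and 8.78 to 9.96 in the other arrays.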
